A study of Mus musculus with 24 samples.

Results

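The stress hormone system was followed in the P9 mouse hippocampus through 10 genes, namely the corticosteroid receptors Nr3c1 and Nr3c2, the receptor response genes Fkbp5, Sgk1, Tsc22d3, Per1 and Zbtb16, the steroid enzyme Hsd11b1, and the peptide Crh with its receptor Crhr1. All probes other than control probes that carried one of these gene names in the scanner files were taken, which gave 13 of the 55681 probesets on the mRNA arrays. Nr3c1, Per1 and Crhr1 had 2 probesets each, and the probeset with the higher mean level stood for the gene. All 13 were well above background on all 15 arrays.

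The arrays held hippocampal RNA of C57BL/6 pups labelled male, 5 untreated controls (Con), 5 pups of the MS2 group and 5 of the MS5 group, each pup on 1 array and both hippocampi of a pup pooled. Treatment began on P5 and tissue was taken on P9. The MS2 group received morphine at 2 mg/kg and the MS5 group at 5 mg/kg, and both groups were also isolated from the dam in a warmer and exposed each day to repeated nitrogen followed by oxygen to simulate apnea. Controls were housed normally with little handling, so that morphine, injection, separation and apnea cannot be told apart in a contrast with controls, and MS5 versus MS2 is the contrast in which the stress protocol was shared.

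Corticosterone, the main glucocorticoid of the mouse, crosses into cells and binds the glucocorticoid receptor (Nr3c1) and, with higher affinity, the mineralocorticoid receptor (Nr3c2), which is known to be rich in hippocampal neurons. The bound receptor moves to the nucleus and switches on genes such as Fkbp5, Sgk1, Tsc22d3, Per1 and Zbtb16, some of which in turn dampen the signal. Upstream, corticotropin-releasing hormone (Crh) drives the pituitary-adrenal axis, is also made by interneurons of the hippocampus, and acts there through Crhr1.

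The glucocorticoid receptor binds DNA as a dimer at a palindrome. The windows of 30 bases that follow hold a match to that palindrome in Sgk1, and matches to motifs of other proteins in Per1 and Fkbp5. They come from the RefSeq promoter table (GRCm38.p6; 250 bases before to 50 after each start), in which 7 of the 10 genes had 15 promoters, and Nr3c1, Zbtb16 and Crh had none. Capitals mark the motif, searched on both strands. The first is the palindrome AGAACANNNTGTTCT, at chr10:21993694-21993723 (+), starting 189 bases before a start of Sgk1. The next is the E-box CACGTG, bound by clock proteins, at chr11:69098771-69098800 (+) in a Per1 promoter and chr17:28486301-28486330 (-) in the Fkbp5 promoter. The last is TGACGT, the core of the site for CREB, at chr11:69100008-69100037 (+) in the other Per1 promoter.
Sgk1, palindrome: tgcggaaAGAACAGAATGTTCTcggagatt
Per1, E-box: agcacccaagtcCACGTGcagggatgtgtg
Fkbp5, E-box: gcaagggccagaCACGTGggcagcggtgaa
Per1, CREB site core: gagctcagcggcTGACGTcggtttccctgg
Of all 32851 promoters in the table, 3 held the palindrome, 7.15% the E-box and 7.51% the core TGACGT. The E-box was also present in the Sgk1 promoter with the palindrome. A match describes letters in a window and was not a measure of binding. Only the exact palindrome in these windows was searched, so the lack of a match does not show that a gene has no receptor site.

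Before the comparisons, 2 libraries went against their labels. The library labelled MS2 replicate 4 had 7 markers of hippocampal excitatory neurons at a mean level of 10.50 (log2), against 12.14 to 12.62 on the other 14 arrays, and 8 markers of hypothalamus and thalamus at 11.31, against 8.16 to 9.93. The hypothalamic peptide gene Pmch stood at 13.33 there and at 5.99 to 7.55 elsewhere, and the hippocampal neuron gene Neurod6 at 10.02 against 13.03 to 13.89. Prkcd, also among the 8 markers of hypothalamus and thalamus, went the other way, at 10.32 against 10.86 to 11.68. The library labelled MS5 replicate 9 carried Xist at 11.34 and the Y-linked gene Ddx3y at 6.24, while Ddx3y lay between 11.01 and 11.45 on the others. The arrays of MS5 replicates 9 and 14 had the 11 choroid plexus markers at 9.84 and 8.74, against 11.41 to 12.72 on the rest. The median spot signal was 100.4 to 128 and 72.5% to 79.0% of spots were well above background on 14 arrays, while MS2 replicate 5 stood apart at 51.0 and 67.1%. The number of arrays is 1 limit on the precision of the values. Shifts in these levels in bulk tissue do not tell fewer cells of a type from less RNA per cell.

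**Figure D1:**
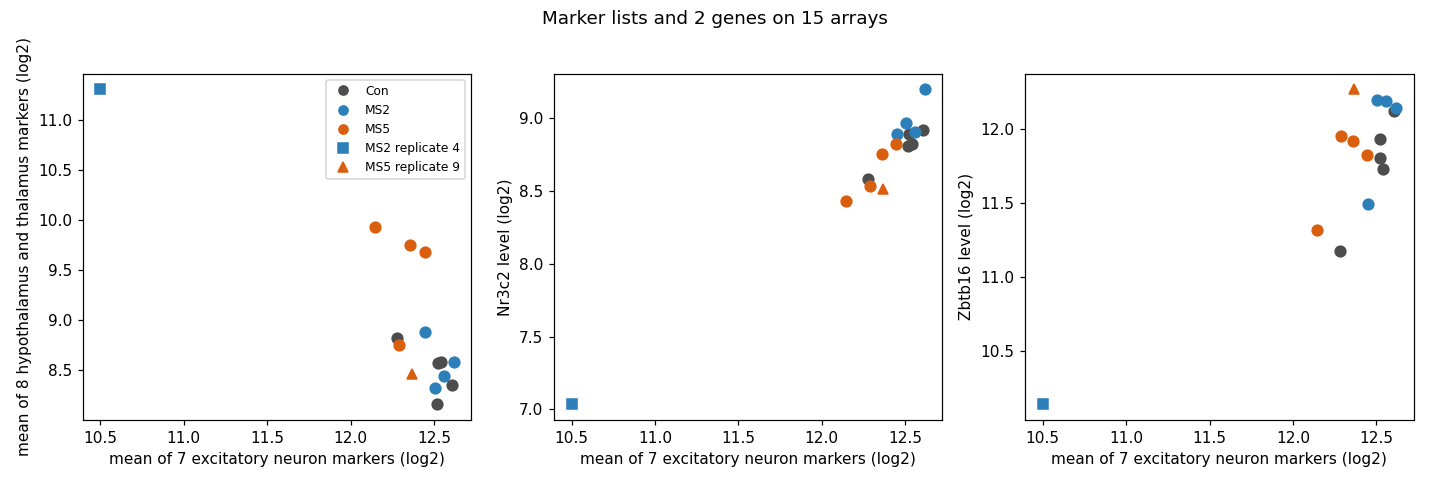
Mean log2 level of 7 hippocampal excitatory neuron markers on each of 15 arrays (x axes), plotted against the mean of 8 hypothalamus and thalamus markers and the log2 levels of Nr3c2 and Zbtb16 (y axes). The library labelled MS2 replicate 4, a square, lies apart at 10.50 on the x axis, with Nr3c2 at 7.04 and Zbtb16 at 10.14.

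No gene of the 10 passed the threshold of the study, a change of more than 1.5-fold together with an unadjusted p under 0.05, in any of the 4 contrasts. Of all probesets, 0.0233% met that threshold for MS2 against controls, 0.228% for MS5 against controls, 0.129% between MS5 and MS2, and 0.0539% for both treated groups pooled against controls. The contrasts share arrays, and the pooled one reuses those of the first and second. At an unadjusted p under 0.05, limma gave 0 of 10 genes for MS2 versus controls, beside 4.17% of all probesets, and 1 of 10 for MS5 versus controls, beside 3.90%. That gene, Fkbp5, was also the only 1 of the 10 for MS5 versus MS2, beside 3.97%, and for the pooled contrast, beside 4.13%. After Benjamini-Hochberg adjustment over all probesets the smallest adjusted p of a member in limma was 0.970, 1.00, 1.00 and 0.988 in these contrasts, and no probeset of the array had an adjusted p under 0.05 in any of them.

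The 10 differences between MS5 and controls had a median of 0.097 (log2), with 7 genes higher and 3 lower, where the median over all probesets was 0.00036. Those between MS2 and controls had a median of -0.0080, with 3 higher and 7 lower. The 95% confidence intervals over the 13 probesets reached from -0.84 to 0.82 (log2) for MS5 and from -0.85 to 0.60 for MS2, and those of Nr3c2, Zbtb16 and the second probeset of Crhr1 in both contrasts, and of Crh in MS5, reached beyond 1.5-fold. For these genes the intervals of this fit do not exclude a difference of that size. The fit shared its spread among all groups, MS2 replicate 4 included. For MS5 versus controls the SE was 0.30 for Nr3c2, 0.34 for Zbtb16 and 0.18 for Crh. With only these groups fitted it was 0.087, 0.19 and 0.19, so the wide MS5 intervals of Nr3c2 and Zbtb16 rested in part on the MS2 arrays.

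**Figure D2:**
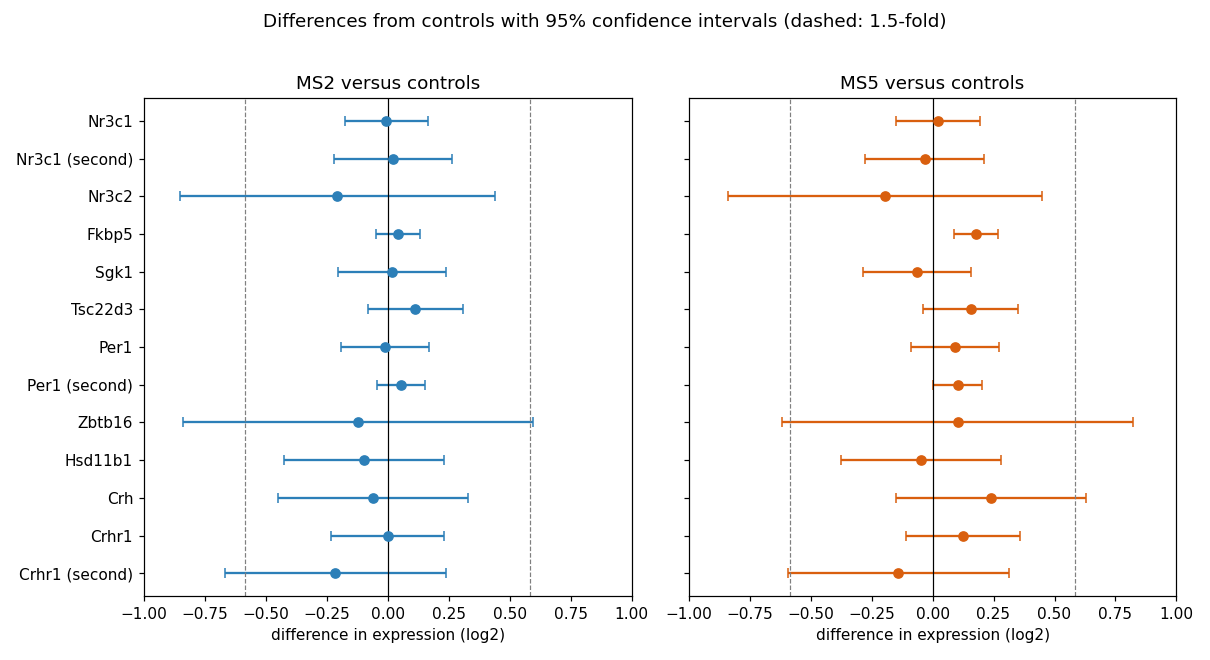
Difference in log2 expression from controls for the 13 probesets (points) with 95% confidence intervals from limma (bars), for MS2 and for MS5, with dashed lines at 1.5-fold. In the MS5 panel the intervals of Fkbp5, 0.088 to 0.27, and of the second Per1 probeset, 0.0030 to 0.20, lie above 0.

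Between the corticosteroid receptors, the differences of Nr3c1 from controls were smaller in size than those of Nr3c2. The glucocorticoid receptor probeset A_55_P1967885 averaged 12.998 ± 0.13 (log2, SD, n = 5) in controls, 12.99 ± 0.18 in MS2 and 13.02 ± 0.074 in MS5. The levels lay between 12.81 and 13.13 in controls, 12.74 and 13.19 in MS2, and 12.95 and 13.14 in MS5, so all 3 groups overlapped. The difference was 0.022 for MS5 with an interval of -0.15 to 0.19, and -0.0059 for MS2 with an interval of -0.18 to 0.17. The second probeset, A_52_P254174, differed from controls by -0.033 in MS5 and 0.021 in MS2, with exact permutation p of 0.794 and 0.873 (two-sided).

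For Nr3c2, the mineralocorticoid receptor, the MS2 difference, the contrast between the doses and the shared spread turned on a single library. The Nr3c2 probeset A_55_P2141978, at positions 79766370 to 79766429 of chromosome 8 (mm9), read 8.92, 8.89, 8.82, 8.81 and 8.58 (log2) in controls. The MS5 arrays read 8.43, 8.51, 8.82, 8.53 and 8.75. The MS2 arrays read 8.90, 9.19, 8.89 and 8.96, and the library labelled MS2 replicate 4 read 7.04. With all arrays the difference from controls was -0.21 ± 0.30 (SE) for MS2 and -0.19 ± 0.30 for MS5. Leaving out MS2 replicate 4 gave an MS2 difference of 0.18 (limma unadjusted p = 0.0684). MS5 minus MS2 turned from 0.013 to -0.38 on leaving that library out (limma unadjusted p = 0.00117, adjusted p = 0.625), and the remaining MS2 arrays, at 8.89 and above, did not overlap the MS5 arrays, at 8.82 and below. With the same arrays, 1.32% of all probesets had every MS5 array below every MS2 array. Without MS5 replicate 9 as well it was -0.35 (limma unadjusted p = 0.0035). When the MS5 and control arrays were fitted alone the difference between them, -0.19, had an unadjusted limma p of 0.0481, against 0.530 with MS2 in the fit and an exact permutation p of 0.0714. Within the first slide, with 2 MS5 and 3 control arrays, that difference was -0.37 (limma unadjusted p = 0.0031). Within the second, with 3 MS5 and 2 control arrays, it was -0.039.

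Levels of Nr3c2 followed those of the excitatory neuron markers, a relation that was chosen after the values were seen. Over 15 arrays Pearson's r was 0.98 and Spearman's rho 0.87 (permutation p = 1.0e-05, the smallest that 100000 resamples allow, and 4.0e-05). On the other 14 arrays they were 0.89 and 0.84 (adjusted permutation p over the 10 genes = 0.00020 and 0.0030). Without MS2 replicate 4 and MS5 replicate 8, the arrays farthest from the median of the markers, r was 0.86. Within the slides r was 0.91 and 0.99, and rho 0.76 and 0.89. The second slide holds MS2 replicate 4. The marker mean was 12.28 to 12.61 in controls and 12.14 to 12.45 in MS5, and its part in the Nr3c2 differences was not tested. Of the 10 genes, 5 had an adjusted permutation p under 0.05 for Pearson's r with these markers on all arrays, and without MS2 replicate 4 only Nr3c2 did. Without MS2 replicate 4 and MS5 replicate 8, 2 did, Nr3c2 and Fkbp5.

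Fkbp5, which encodes a co-chaperone that lowers the affinity of the glucocorticoid receptor for its hormone, gave the clearest difference between groups. Its probeset A_55_P1952379 lies at positions 28536060 to 28536119 of chromosome 17 (mm9). The control arrays read 11.79, 11.83, 11.69, 11.80 and 11.87 (log2), and the MS2 arrays 11.81, 11.77, 11.85, 11.89 and 11.86. The MS5 arrays read 11.89, 12.04, 12.01, 11.99 and 11.95, and the lowest of them lay above the highest control. Such a separation with MS5 higher was found at 0.309% of all probesets.

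The means of Fkbp5 were 11.80 ± 0.070 in controls, 11.84 ± 0.047 in MS2 and 11.98 ± 0.058 in MS5 (SD, n = 5). MS5 was above controls by 0.18 ± 0.042 (log2, SE), which is 1.13-fold (limma unadjusted p = 0.00079, adjusted p = 1.00). The exact permutation test gave p = 0.00794 (two-sided), the smallest that 5 against 5 arrays allow. MS2 was above controls by 0.041, within the spread between replicates, with an interval of -0.049 to 0.13. Between the doses, MS5 was above MS2 by 0.14 ± 0.042 (unadjusted limma p = 0.0056, adjusted p = 1.00; exact permutation p = 0.0159). The lowest MS5 array and the highest MS2 array overlapped.

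The MS5 difference of Fkbp5 held its sign and an unadjusted p under 0.05 in all 20 alternative settings, between 0.14 and 0.20 (log2), with adjusted p between 0.418 and 1.00. It was 0.18 within the first slide and 0.14 within the second. Without the library labelled MS5 replicate 9, which read highest, it was 0.16, with a limma unadjusted p of 0.0028. The difference between MS5 and MS2 missed an unadjusted p of 0.05 within either slide alone, at 0.13 in both. The pooled contrast, 0.11, missed it with the scanner's processed signal, at 0.091 (limma unadjusted p = 0.122), and within the second slide, at 0.082 (limma unadjusted p = 0.179).

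The means of several marker lists moved with the MS5 arrays, and their part in the Fkbp5 difference was not tested. The hypothalamus and thalamus markers, of which 7 of 8 were well above background on all arrays, had a mean of 8.16 to 8.82 in controls and 8.46 to 9.93 in MS5. The members of that list differed. Avp, Oxt, Trh and Pmch reached 12.47, 11.62, 11.30 and 7.55 in MS5, against 8.18, 7.86, 10.68 and 6.76 in controls. Tcf7l2, Hcrt, Lhx9 and Prkcd reached 8.92, 8.18, 10.89 and 11.55 in MS5, against 8.72, 8.13, 10.92 and 11.64 in controls. The MS5 array with the highest Fkbp5, replicate 9, had the lowest mean of that list in its group, 8.46. Against the excitatory neuron markers, of which all 7 were well above background on all arrays, Fkbp5 had Pearson's r of -0.10 and Spearman's rho of -0.68 over all arrays (adjusted permutation p = 0.685 and 0.0232). On the 14 arrays other than MS2 replicate 4 they were -0.60 and -0.77 (adjusted permutation p = 0.0605 and 0.0113). Without MS2 replicate 4 and MS5 replicate 8 r was -0.73 and rho -0.82 (adjusted permutation p = 0.0233 and 0.0103). Within the slides r was -0.70 and 0.37, and rho -0.79 and 0. The second slide holds MS2 replicate 4, and the values on that slide were not computed without it.

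**Figure D3:**
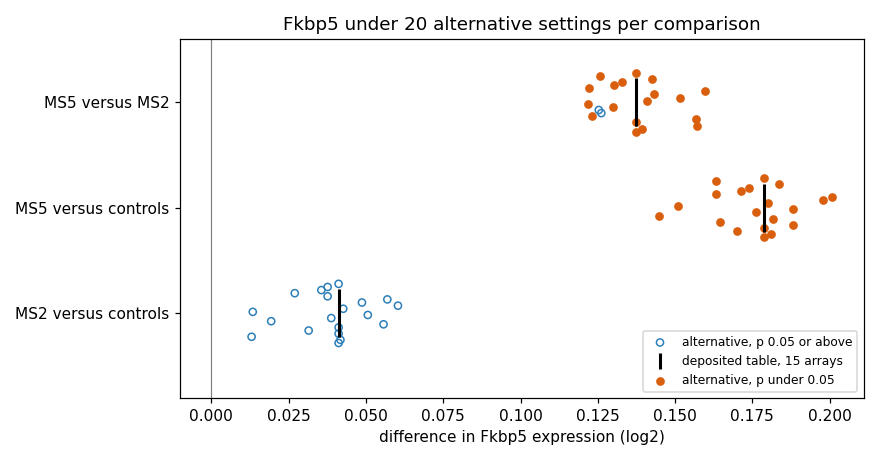
Difference in Fkbp5 expression (log2, x axis) for 3 contrasts under 20 alternative settings each, filled where the unadjusted limma p is under 0.05, with a bar at the value from the deposited table. The MS5 versus control points lie between 0.14 and 0.20 and all are filled, and the MS2 versus control points lie between 0.013 and 0.060.

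Sgk1, a kinase that regulates ion channels and transporters and the gene with the palindrome shown above, did not follow Fkbp5. The control arrays read 12.20, 12.31, 12.49, 12.21 and 12.48 (log2), the MS2 arrays 12.29, 12.44, 12.42, 12.34 and 12.29, and the MS5 arrays 12.55, 12.03, 12.54, 12.22 and 12.03. The MS5 arrays held both the highest and the lowest level of the series, and the groups overlapped. The difference was -0.063 ± 0.10 (SE) for MS5, and -0.0024 and -0.0027 without MS5 replicates 9 and 14. Within the slides it was 0.084 and -0.19. For MS2 it was 0.015 ± 0.10.

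Tsc22d3, the leucine zipper protein GILZ that carries anti-inflammatory effects of glucocorticoids, is X-linked. Its control arrays were close together, at 12.76, 12.77, 12.80, 12.83 and 12.77 (log2). The MS5 arrays read 12.94, 13.07, 12.77, 13.07 and 12.88, so 4 of 5 lay above all controls. The MS2 arrays read 12.85, 12.69, 12.84 and 12.85, and the library labelled MS2 replicate 4 read 13.29. MS5 was above controls by 0.16 ± 0.091 (SE) with an unadjusted limma p of 0.106, and the exact permutation p was 0.0397 (two-sided). Fitting the MS5 and control arrays alone gave a limma unadjusted p of 0.0233, and leaving out MS5 replicate 12 gave 0.20 with a limma unadjusted p of 0.0485. Within the slides the difference was 0.20 and 0.13. With MS5 replicate 9, the library with Xist, left out it was 0.12 (limma unadjusted p = 0.219), and with MS2 replicate 4 also left out it was 0.12 (limma unadjusted p = 0.0498). The MS2 difference was 0.11, and 0.017 without MS2 replicate 4.

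Per1, a clock gene that glucocorticoids also induce, had 2 probesets on chromosome 11 (mm9). A_55_P1970033, at positions 68923364 to 68923423, averaged 12.59 ± 0.11 in controls, 12.58 ± 0.17 in MS2 and 12.68 ± 0.14 in MS5 (log2, SD, n = 5). It was above controls by 0.091 in MS5, with an interval of -0.090 to 0.27, and by 0.032 without MS5 replicate 8. A_55_P2019327, at positions 68919895 to 68919954, read 6.40 to 6.46 in controls, 6.32 to 6.62 in MS2 and 6.49 to 6.57 in MS5. At this second probeset all MS5 arrays lay above all controls, by 0.10 ± 0.047 (SE; limma unadjusted p = 0.0443, adjusted p = 1.00; exact permutation p = 0.00794). The mean of both Per1 probesets, the dim one included, was above controls by 0.097 in MS5 (limma unadjusted p = 0.0390). With Fkbp5, the second Per1 probeset made 2 of 13 probesets whose MS5 and control arrays did not overlap, beside 0.828% of all probesets.

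Zbtb16, a zinc finger transcription factor induced by glucocorticoids in many tissues, varied widely between pups. It read 11.18 to 12.12 in controls, 11.32 to 12.27 in MS5 and 11.49 to 12.20 in MS2 without replicate 4, which read 10.14. The MS5 difference was 0.10 ± 0.34 (SE), with -0.29 within the first slide and 0.51 within the second, and 0.00018 without MS5 replicate 9. The MS2 difference was -0.12, and 0.25 without MS2 replicate 4 (limma unadjusted p = 0.250). Its level followed the excitatory markers less closely than Nr3c2 did in these values, with r of 0.87 over all arrays and 0.60 without MS2 replicate 4 (adjusted permutation p = 0.0605), and Spearman's rho of 0.53 and 0.42. Without MS2 replicate 4 and MS5 replicate 8 r was 0.44, and the relation rested on these arrays.

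Hsd11b1, the enzyme that regenerates active glucocorticoid inside cells, was read by 10 spots of 1 probe on each array, and the deposited table held the first of them. It averaged 11.48 ± 0.16 in controls, 11.38 ± 0.40 in MS2 and 11.43 ± 0.14 in MS5 (log2, SD, n = 5). The library labelled MS2 replicate 4 read 10.74, the lowest of all, and without it the MS2 mean was 11.54. Spots on 1 array had an SD of 0.11 to 0.19 (log2), as large as the SD between control pups. The differences from controls were -0.048 for MS5 and -0.099 for MS2, and the latter was 0.062 without MS2 replicate 4.

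**Figure D4:**
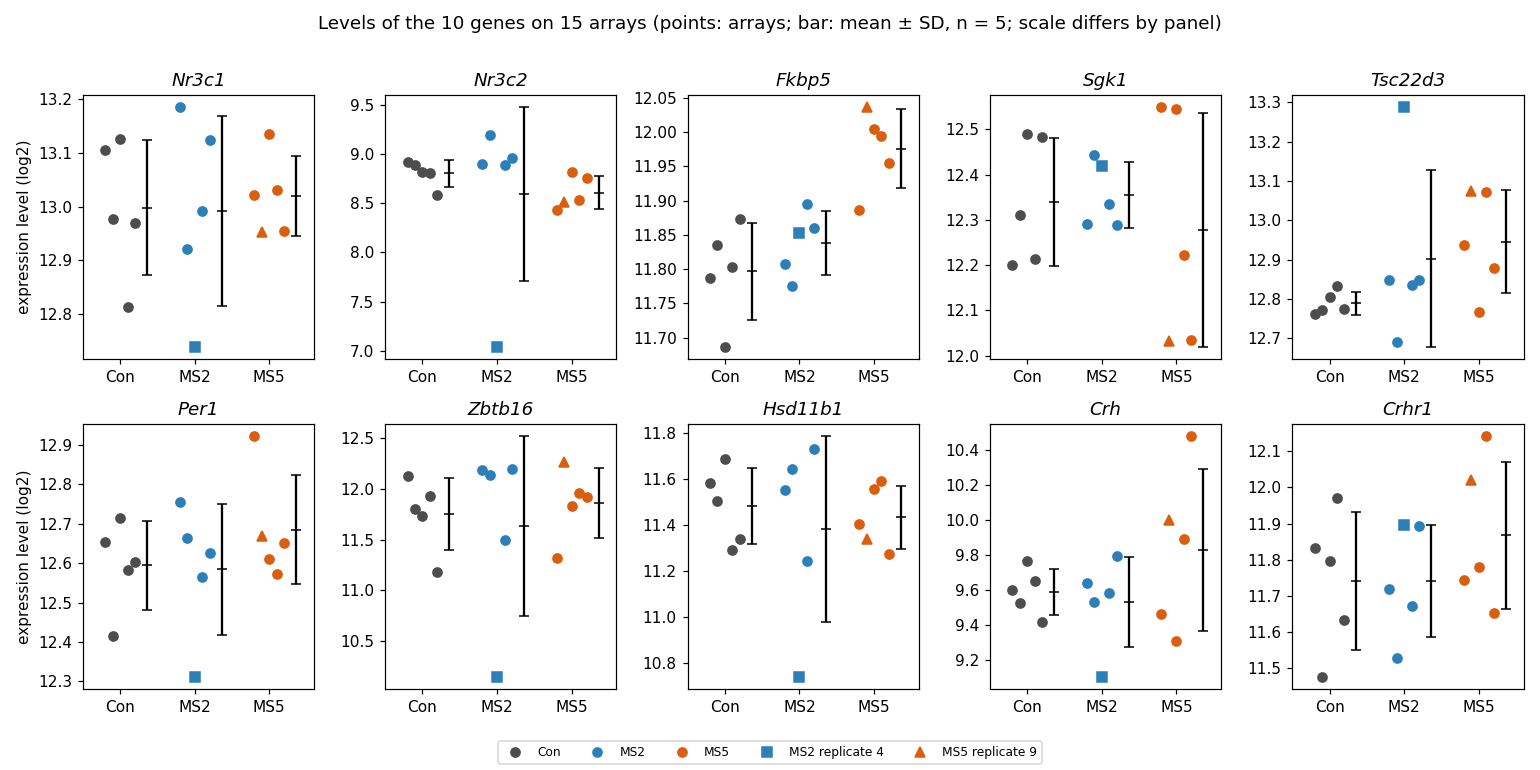
Log2 expression level of the 10 genes on 15 arrays (points, grouped as Con, MS2 and MS5), with the mean and SD of each group of 5 as bars. Each panel has its own scale. The 5 MS5 arrays lie above the 5 control arrays for Fkbp5, and the square, MS2 replicate 4, is the lowest point for Nr3c1, Nr3c2, Per1, Zbtb16, Hsd11b1 and Crh and the highest for Tsc22d3.

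Crh read 9.41 to 9.76 in controls and 9.53 to 9.79 in MS2 without replicate 4, which read 9.10. The MS5 arrays spread more, at 9.46, 10.00, 9.31, 9.89 and 10.47, so that 3 of 5 lay above all controls and 1 below. Their mean was 9.83 ± 0.46 against 9.59 ± 0.13 in controls (log2, SD, n = 5), a difference of 0.24 ± 0.18 (SE; exact permutation p = 0.325). It was 0.076 without MS5 replicate 14 and 0.37 without MS5 replicate 12 (limma unadjusted p = 0.624 and 0.04998). Within the slides it was 0.0073 and 0.46.

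Its receptor Crhr1, which couples to stimulatory G proteins, had probesets that differed in sign. A_51_P229163, at positions 104036691 to 104036750 of chromosome 11 (mm9), was above controls by 0.13 ± 0.11 (SE) in MS5. A_55_P1997609, at positions 104036182 to 104036241, was below controls by -0.14 ± 0.21 there. The latter rested on control replicate 17, at 10.11, with the other controls at 8.78 to 9.15. Neither difference exceeded the spread between replicates.

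A common variation of the 5 response genes among pups was not found. Of the 10 pairs of Fkbp5, Sgk1, Tsc22d3, Per1 and Zbtb16 over 15 arrays, 0 had a Benjamini-Hochberg adjusted permutation p under 0.05, and the smallest unadjusted permutation p was 0.0561 for Pearson's r and 0.0135 for Spearman's rho. Pearson's r lay between -0.53 (Tsc22d3 and Zbtb16) and 0.45 (Per1 and Zbtb16), with 4 pairs positive. Both of these values rested on MS2 replicate 4, and without it they were 0.14 and -0.10. Fkbp5 and Tsc22d3 had r = 0.40 and rho = 0.50 (adjusted permutation p = 0.359 and 0.310), and r = 0.63 and rho = 0.58 without MS2 replicate 4 (adjusted permutation p = 0.134 and 0.169). Within the slides r lay between -0.68 and 0.83 in the first and -0.54 and 0.76 in the second, with 0 pairs past adjustment in either. By rank, Fkbp5 and Tsc22d3 had rho = 0.90 in the first slide (adjusted exact permutation p = 0.0456) and 0.071 in the second.

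All 45 pairs of the 10 genes were examined after the data were seen, and 6 had an adjusted permutation p under 0.05 for Pearson's r, of which 2 were past it without MS2 replicate 4. These were Nr3c2 with Tsc22d3 and Sgk1 with Crh. Nr3c2 and Tsc22d3 ran opposite to each other, with r = -0.87 and rho = -0.72 (permutation p = 0.00011 and 0.0038, adjusted 0.0049 and 0.0855). Leaving out MS2 replicate 4 gave r = -0.75 (adjusted permutation p = 0.0405). Without MS2 replicate 4 and MS5 replicate 8, the farthest from the median of Nr3c2, it was also -0.75. Within the slides r was -0.86 and -0.89, and rho -0.71 and -0.75 (exact permutation p = 0.0576 and 0.0663 for rho). The second slide holds MS2 replicate 4. Over all arrays both genes followed the excitatory neuron markers, in opposite directions. Of these genes, only Nr3c2 kept an adjusted permutation p under 0.05 without MS2 replicate 4. For Tsc22d3 r was -0.81 and rho -0.68 over all arrays (adjusted permutation p = 0.0043 and 0.0232). Without MS2 replicate 4 they were -0.61 and -0.60 (adjusted permutation p = 0.0605 and 0.0813), and r was -0.61 without MS2 replicate 4 and MS5 replicate 8. Within the slides r was -0.81 and -0.85, and rho -0.83 and -0.61, with MS2 replicate 4 on the second. The part of these markers in the relation of Nr3c2 and Tsc22d3 was not tested.

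Sgk1 and Crh also ran opposite, with r = -0.76 and rho = -0.74 (permutation p = 0.00056 and 0.0025, adjusted 0.0087 and 0.0855). Without MS5 replicates 9 and 14, the farthest from the median of Sgk1, r was -0.54 and rho -0.60 (permutation p = 0.0552 and 0.0340). At an unadjusted p under 0.05 Pearson's r thus rested on these arrays. The rank correlation stayed under that p, but had not passed adjustment on all arrays. Within the slides r was -0.46 and -0.89, and rho -0.36 and -0.82 (exact permutation p = 0.389 and 0.0341 for rho). The oligodendrocyte markers, 5 of 6 of them well above background on all arrays, averaged 11.90 and 11.22 on the arrays with the highest Sgk1, MS5 replicates 8 and 12, and 10.19 and 10.66 on those with the lowest, MS5 replicates 9 and 14. Their part in the relation was not tested.

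**Figure D5:**
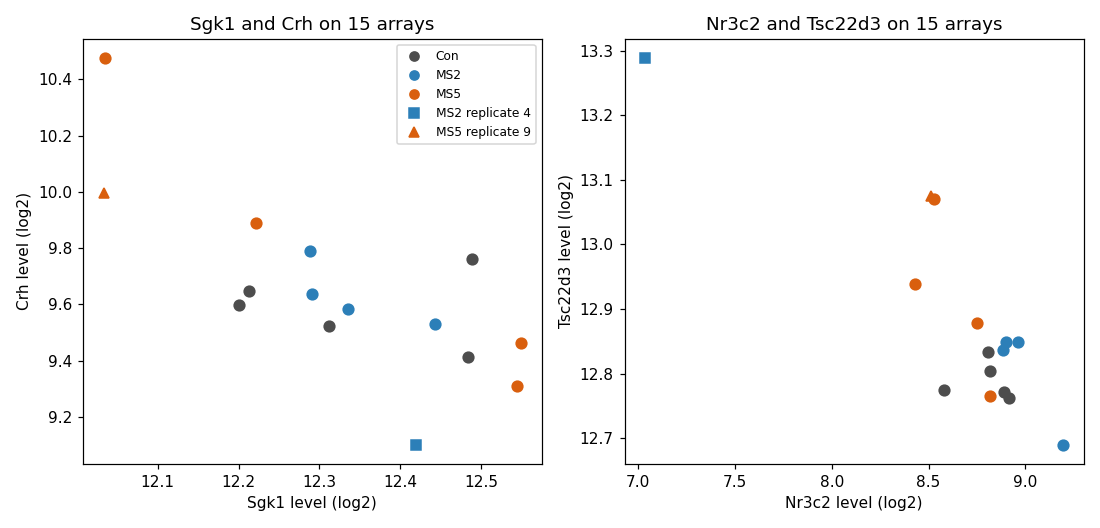
Log2 levels of Sgk1 and Crh (left) and of Nr3c2 and Tsc22d3 (right) on 15 arrays, each point an array coloured by group. Both pairs slope downwards, with r = -0.76 and r = -0.87, and MS2 replicate 4, a square, stands at the far left for Nr3c2.

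Among 14973 genes well above background on all arrays, those whose level was most like that of Fkbp5 over the 15 arrays included Tspyl5 (Pearson's r = 0.89), Mtrf1l (0.72), Taf12 (0.71) and Alkbh2 (0.71). For Sgk1 they were Col9a3 (0.93), Tmem98 (0.91), Elovl7 (0.91), Plaur (0.89) and Hdc (0.89). These are the highest of many correlations and are given as a description.

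The wider system was read through 61 other genes in 4 lists. For MS5 versus controls 6 of the 61 (9.84%, beside 3.90% of all probesets) had an unadjusted limma p under 0.05, for MS2 versus controls 3 (4.92%, beside 4.17%), for both treated groups pooled 7 (11.5%, beside 4.13%), and for MS5 versus MS2 0 (beside 3.97%), while the adjusted p was 0.970 or more for each of them. Of 14 receptor chaperones and coregulators, 1 was higher and 0 lower at that p in MS5, with a median difference of -0.015 (log2), and in MS2 1 was higher and 1 lower, with a median of -0.031. Ncoa3, a coactivator of nuclear receptors, averaged 12.23 ± 0.049 in controls, 12.38 ± 0.082 in MS2 and 12.34 ± 0.055 in MS5 (SD, n = 5), higher by 0.16 in MS2 and 0.11 in MS5 (limma unadjusted p = 0.0032 and 0.0214). Hsp90ab1, a chaperone that holds the receptor ready to bind hormone, was lower in MS2 by -0.13 (limma unadjusted p = 0.0363, exact permutation p = 0.0635).

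Of 24 other glucocorticoid-induced genes, 1 was higher and 1 lower in MS5 and 0 higher and 1 lower in MS2, with medians of -0.0041 and -0.033. Dusp1, a phosphatase of MAP kinases, averaged 9.57 ± 0.15 in controls, 9.24 ± 0.20 in MS2 and 9.36 ± 0.14 in MS5 (SD, n = 5), lower by -0.33 in MS2 (limma unadjusted p = 0.0048, exact permutation p = 0.0238). Pdk4, which restrains entry of pyruvate into the mitochondrial citrate cycle, was lower by -0.32 in MS5 (limma unadjusted p = 0.0172, exact permutation p = 0.00794). Hif3a was higher by 0.37 in MS5 (limma unadjusted p = 0.0498, exact permutation p = 0.119).

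Of 11 genes of corticosteroid synthesis and metabolism, 6 were well above background on all arrays, and the 1 at an unadjusted p under 0.05, Cyp11b2, was well above background on 0 arrays. Of 12 genes of the CRH family and pituitary-adrenal axis, 1 was higher and 1 lower in MS5, with a median of -0.041. Crhr2, the second CRH receptor, averaged 9.85 ± 0.38 in controls and 9.32 ± 0.36 in MS5, lower by -0.53 (limma unadjusted p = 0.0094, exact permutation p = 0.0635). MS5 replicates 9, 13 and 14 read 9.13, 8.89 and 9.28 for Crhr2, with choroid plexus markers at 9.84, 11.41 and 8.74, and replicates 8 and 12 read 9.50 and 9.82, with these markers at 11.96 and 12.19. All 11 choroid plexus markers were well above background on all arrays, with a mean of 11.71 to 12.72 in controls, and their part in the Crhr2 difference was not tested. Avp, the vasopressin gene, read 6.32 to 8.18 in controls and 6.76 to 12.47 in MS5, a difference of 2.53 (limma unadjusted p = 0.0280, exact permutation p = 0.119), and was itself among the hypothalamus and thalamus markers. It was the 1 gene of the 61 past the threshold of the study in a contrast with controls.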

How the data were processed

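Per the labels and the methods, RNA of 15 pups was hybridized to 1-colour Agilent arrays, read with Feature Extraction 10.7.1.1. The authors deposited a scanner intensity for each of 62976 spots, and a series table of log2 values that they had background adjusted with normexp and quantile normalized. Recomputing these steps from the intensity files with the first spot of each probe gave the table within 5.0e-09 (log2). The deposited log2 values were the main data, and dropping control probes left 55681 probesets. The miR arrays were not analysed here.

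The groups were compared in 1 limma fit of 3 groups (R 4.3.3, limma 3.58.1; lmFit and eBayes), with Benjamini-Hochberg adjustment over all probesets and intervals at 95%. Single probesets were also compared with two-sided exact permutation tests over all assignments of arrays, and correlations with 100000 resamples, or exactly within a slide (scipy 1.17.1). The replicates were different pups, and arrays lay on 2 slides that each held all groups. The first slide held 3 control, 3 MS2 and 2 MS5 arrays, and the second 2 control, 2 MS2 and 3 MS5 arrays. The fit was tested on simulated data.

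The members and the lists were chosen with earlier results of these data known. Named genes were all members, the genes of 4 wider lists at an unadjusted p under 0.05 (at most 6 per contrast with controls), and the 5 genes most correlated with Fkbp5 and with Sgk1, of which 1 is not reported here. The lists were receptor chaperones and coregulators, other glucocorticoid-induced genes, corticosteroid synthesis and metabolism, and CRH family and pituitary-adrenal axis. The marker lists were hippocampal excitatory neurons, GABAergic interneurons, choroid plexus, hypothalamus and thalamus, endothelium, oligodendrocytes, astrocytes, microglia, blood and sex. The alternatives were other background offsets and signals, averaged spots, a filter on dim probes, array weights, the slide as a block or alone, fewer groups in the fit, other probesets of a gene, and each array left out. Leaving out MS2 replicate 4 and MS5 replicate 9 together, and all pairs of the 10 genes, were added after seeing the data.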

Additional observations from a re-analysis of the deposited data

Results flagged for a closer look

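In 39 sets of 5 arrays, 1 for each of 13 probesets and 3 groups, 4 held a sample far from the others by Dixon's criterion at 95%, where chance flags about 1 in 20 sets. The library labelled MS2 replicate 4 was far from its group for Nr3c2, at 7.04 (log2) against 8.89 to 9.19, and for Tsc22d3, at 13.29 against 12.69 to 12.85. This is also the library with excitatory neuron markers at a mean of 10.50 and hypothalamus and thalamus markers at a mean of 11.31. MS5 replicate 8 was far for Per1, at 12.92 against 12.57 to 12.67. Control replicate 17 was far for the second probeset of Crhr1, at 10.11 against 8.78 to 9.15. Between the doses, with the stress protocol shared, Fkbp5 differed by 0.14 (log2; limma unadjusted p = 0.0056, adjusted p = 1.00), with 1 of 5 MS5 arrays below the highest MS2 array.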

How the results depend on the processing

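Per the methods, treated pups shared a home cage with control littermates. The sample labels used here give no litter, so no analysis paired by litter was possible, and the tests took pups as independent. The number of probesets past the threshold varied with the processing. For MS2 versus controls (13) it was 230 with an offset of 0, 522 with the processed signal, 293 on slide 2, 7 without MS2 replicate 4 and MS5 replicate 9 together, and 7 (without control replicate 18) to 38 (without MS2 replicate 5) with single arrays left out. For MS5 versus controls (127) it was 401, 623, 204 with array weights, 391 and 191 on slides 1 and 2, and 61 (without MS5 replicate 14) to 213 (without MS5 replicate 12). For MS5 versus MS2 (72) it was 370, 592, 159, 393, 313, 123 without both libraries, 38 with only the groups compared, and 15 (without MS5 replicate 14) to 106. For the pooled contrast (30) it was 170, 404, 79 and 135 on the slides, 11 without both libraries, and 10 (without control replicate 16) to 83 (without MS5 replicate 12). Members past the threshold stayed at 0 throughout except for 1, Zbtb16, in MS5 versus MS2 on slide 2, where the difference was 1.19, against -0.54 on slide 1 (limma unadjusted p = 0.0134) and -0.15 without MS2 replicate 4. Members at an unadjusted p under 0.05 in MS5 versus controls (1) numbered 2 with array weights, 3 on slide 1, 2 without both libraries, 3 with only the groups compared, and 1 to 3 (without MS5 replicate 12) with single arrays left out. In MS5 versus MS2 (1) they numbered 3 on slide 1, 2 without both libraries and 1 to 3 (without MS2 replicate 4) with single arrays left out, and in the pooled contrast (1) 0 with the processed signal and 0 on slide 2. Pairs of response genes with an adjusted permutation p under 0.05 for Pearson's r stayed at 0 in each setting run on these 10 pairs, while by Spearman's rho 1 pair was under it on slide 1 (Fkbp5 and Tsc22d3) and 1 without MS2 replicate 3 (Sgk1 and Zbtb16, rho = -0.74). Signs of many differences changed, also that of the largest MS2 difference from controls, Nr3c2 (-0.21 with all arrays), while Fkbp5 kept its sign. For MS2 versus controls, array weights gave Nr3c1 0.050, Nr3c2 0.11, Sgk1 -0.0081, Per1 0.063, Zbtb16 0.29, Hsd11b1 0.066 and Crh 0.015. Slide 1 gave Nr3c1 0.062, Nr3c2 0.17, Tsc22d3 -0.0042, Per1 0.030, Zbtb16 0.25 and Hsd11b1 0.12, and slide 2 gave Sgk1 -0.020 and Crhr1 0.23. Without both libraries Nr3c1 was 0.058, Nr3c2 0.18, Sgk1 -0.00068, Per1 0.058, Zbtb16 0.25, Hsd11b1 0.062 and Crh 0.046. The processed signal gave Sgk1 -0.0099, the mean of probesets Nr3c1 0.0074 and Per1 0.022, and the probeset A_52_P254174 Nr3c1 0.021. With single arrays left out the ranges were -0.054 to 0.058 for Nr3c1, -0.36 to 0.18 for Nr3c2, -0.019 to 0.053 for Sgk1, -0.055 to 0.058 for Per1, -0.27 to 0.25 for Zbtb16, -0.19 to 0.062 for Hsd11b1, -0.13 to 0.046 for Crh and -0.067 to 0.056 for Crhr1. For MS5 versus controls, Nr3c1 was -0.0056 with the processed signal, -0.0025 with array weights, -0.0055 for the mean of probesets, -0.033 for A_52_P254174 and -0.024 to 0.054 with single arrays left out. Sgk1 was 0.084 and Zbtb16 -0.29 on slide 1, Hsd11b1 0.0089 with the slide as a block, and Crhr1 -0.0073 for the mean of probesets. With single arrays left out Zbtb16 ranged from -0.041 to 0.24 and Hsd11b1 from -0.095 to 0.0031. For MS5 versus MS2, Nr3c2 was -0.31 with array weights, -0.54 on slide 1, -0.35 without both libraries and -0.38 to 0.16 with single arrays left out. Only the groups compared could not be fitted as an alternative for the pooled contrast, which uses all groups, and other probesets were tried only for Nr3c1, Per1, Hsd11b1 and Crhr1. The cause of these changes was not tested.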

Other observations

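GABAergic interneuron markers averaged 13.63 to 14.21 (log2) in controls and 13.83 to 14.51 in MS5, and reached 14.53 in the library labelled MS2 replicate 4. Astrocyte markers stayed within 13.98 to 14.18 on all arrays, endothelial markers within 11.18 to 11.49, and microglial markers within 11.35 to 11.89. Blood markers ranged from 12.00 to 13.53. In MS5, replicates 8, 12 and 14 had Avp at 11.99, 12.47 and 10.79 and Oxt at 10.44, 9.89 and 11.62, and replicates 9 and 13 had both at 6.76 to 7.40. Fkbp5 read 11.89, 12.01 and 11.95 on the former arrays and 12.04 and 11.99 on the latter.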
